A study of Mus musculus with 12 samples.

Results

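The Skint genes were examined in RNA sequencing of dorsal epidermal scrapings from 12 C57BL/6 mice, 6 WT and 6 Pparg-/-epi. Members were the rows of the deposited table named Skint1 to Skint10, and all 10 of these genes were listed among 14533 genes. Skint11, a further gene of the same name series, lies outside this rule and is given beside them. All mice of both groups carried loxP-flanked Pparg alleles on both chromosomes (flox/flox), with loxP sites around exons 1 and 2. The Pparg-/-epi mice carried Cre recombinase driven by the cytokeratin 14 promoter (Cre+/-), which is active in basal keratinocytes of the interfollicular epidermis and follicles, and the WT siblings carried no Cre (Cre-/-). No mouse was treated, and ages in the labels ran from 8 to 13 weeks in both groups, although the study's own text and mouse sheet give other ages for some mice. The WT group held 3 females and 3 males, and the Pparg-/-epi group 4 females and 2 males. The skin was non-lesional, 1 library was made per mouse, and scraping stopped when the superficial dermis was reached, so the samples held dermal cells as well.

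Skint stands for selection and upkeep of intraepithelial T cells. The genes encode membrane proteins of the immunoglobulin superfamily that are related to butyrophilins, and they are expressed in keratinocytes and in thymic epithelium. Skint1, the founding member, is needed in the thymus for the selection of the gamma delta T cells that later populate the mouse epidermis as dendritic epidermal T cells. The roles of the other members are less well defined. The genes form a cluster on chromosome 4 with many near copies, so shared sequence is given before any level.

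The 10 members lay between 111919555 and 113999503 on chromosome 4 of mm10, in the order Skint8, Skint7, Skint1, Skint4, Skint3, Skint9, Skint2, Skint10, Skint6 and Skint5, followed by Skint11. Skint5, Skint6, Skint9 and Skint10 are on the minus strand and the others on the plus strand. The reads were paired and 75 bases long, and the authors removed reads that mapped to more than 1 place. Of the 75-base stretches in each gene's transcripts (GENCODE vM21), none occurred in another gene's transcripts for Skint1, Skint3, Skint4, Skint9 and Skint10. The share was 4.63% for Skint7 and 4.06% for Skint8, almost all of it between these 2 genes, and 1.08% for Skint5 and 1.28% for Skint6, all of it with each other. For Skint2 it was 0.0436% and for Skint11 2.09%, neither with another Skint gene. Reads from such stretches could not be assigned to 1 gene by their own sequence alone, although the mate of a read may lie outside the stretch. The counts of Skint7 and Skint8 are the most exposed to this. Exons of Skint6 also overlap an antisense gene, Gm12823, that the table does not list, and whether counting used the strand is not given in the sources used here.

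Over longer alignments, transcripts of Skint7 and Skint8 were 95.1% identical over 899 aligned columns. Skint9 and Skint10 were 83.9% identical over 1383 columns, and Skint10 and Skint11 82.3% over 1044. Skint2 was 82.4% to 84.4% identical to Skint3, Skint4, Skint5 and Skint6 over 729 to 942 columns. Skint3 and Skint4 were 80.3% to 81.8% identical to Skint5 and Skint6 over 747 to 798 columns, and 72.4% to each other over 1868. Skint5 and Skint6 had the longest alignment of the family, at 4502 columns with 75.9% identity. Among alignments of over 500 columns, the highest identity of Skint1 was 78.1%, to Skint2 over 782.

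Sequences upstream of the start sites are shown for the members whose levels changed or moved with a member that did, each as the 250 bases before the start site on the gene's own strand, from RefSeq on build GRCm38.p6. In the first 6 sequences, capitals mark bases identical to the named other gene in a local alignment. In Skint1, capitals mark the letters TATAAA.
Skint5 (chr4:113999504-113999753, minus strand, aligned with Skint6): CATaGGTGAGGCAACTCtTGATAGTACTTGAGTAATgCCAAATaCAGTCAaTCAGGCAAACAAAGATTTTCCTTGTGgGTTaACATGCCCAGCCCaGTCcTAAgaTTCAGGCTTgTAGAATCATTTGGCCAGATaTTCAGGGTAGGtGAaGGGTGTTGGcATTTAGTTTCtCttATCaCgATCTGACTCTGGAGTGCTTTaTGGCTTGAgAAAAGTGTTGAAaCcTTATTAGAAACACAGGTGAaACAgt
Skint6 (chr4:113286974-113287223, minus strand, aligned with Skint5): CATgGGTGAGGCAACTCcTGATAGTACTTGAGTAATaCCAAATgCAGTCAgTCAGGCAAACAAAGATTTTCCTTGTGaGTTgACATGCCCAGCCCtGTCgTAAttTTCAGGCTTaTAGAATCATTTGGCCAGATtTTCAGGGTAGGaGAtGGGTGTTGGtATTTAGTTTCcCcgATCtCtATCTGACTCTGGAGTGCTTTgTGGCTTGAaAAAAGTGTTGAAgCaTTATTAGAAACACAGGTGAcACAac
Skint7 (chr4:111972677-111972926, plus strand, aligned with Skint8): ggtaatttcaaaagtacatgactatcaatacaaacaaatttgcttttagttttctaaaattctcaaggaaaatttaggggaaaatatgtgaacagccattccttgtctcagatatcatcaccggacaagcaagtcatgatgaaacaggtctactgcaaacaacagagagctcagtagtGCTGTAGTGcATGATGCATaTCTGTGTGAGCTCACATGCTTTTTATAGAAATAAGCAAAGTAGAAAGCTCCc
Skint8 (chr4:111919305-111919554, plus strand, aligned with Skint7): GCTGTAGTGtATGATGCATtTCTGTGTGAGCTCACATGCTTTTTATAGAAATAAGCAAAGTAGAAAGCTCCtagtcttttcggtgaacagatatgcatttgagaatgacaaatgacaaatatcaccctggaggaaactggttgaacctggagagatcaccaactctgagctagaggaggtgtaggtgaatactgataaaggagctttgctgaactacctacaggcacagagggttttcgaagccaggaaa
Skint9 (chr4:112433986-112434235, minus strand, aligned with Skint10): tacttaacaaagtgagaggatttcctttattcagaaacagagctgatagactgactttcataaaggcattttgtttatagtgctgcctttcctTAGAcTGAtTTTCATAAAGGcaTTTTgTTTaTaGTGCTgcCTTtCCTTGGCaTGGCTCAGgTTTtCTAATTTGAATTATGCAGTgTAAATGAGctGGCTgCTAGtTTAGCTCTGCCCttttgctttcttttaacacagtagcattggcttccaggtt
Skint10 (chr4:112774862-112775111, minus strand, aligned with Skint9): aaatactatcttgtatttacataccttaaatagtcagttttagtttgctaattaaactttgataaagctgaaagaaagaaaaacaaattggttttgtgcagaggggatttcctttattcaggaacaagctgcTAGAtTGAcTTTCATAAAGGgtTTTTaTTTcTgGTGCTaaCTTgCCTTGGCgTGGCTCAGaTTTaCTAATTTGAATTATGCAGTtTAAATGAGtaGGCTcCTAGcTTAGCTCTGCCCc
Skint1 (chr4:112006019-112006268, plus strand): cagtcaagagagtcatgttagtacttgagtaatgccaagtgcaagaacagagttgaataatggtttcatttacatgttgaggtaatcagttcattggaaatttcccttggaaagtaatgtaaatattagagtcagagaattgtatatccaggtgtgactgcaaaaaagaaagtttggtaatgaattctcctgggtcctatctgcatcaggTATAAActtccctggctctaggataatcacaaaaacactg

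Skint5 and Skint6 shared 222 of the 250 bases, in 1 alignment that ran to within 3 bases of both start sites. Skint10 and Skint11 shared 175 bases, Skint2 and Skint5 153, Skint2 and Skint6 151, Skint3 and Skint4 149, and Skint9 and Skint10 99. Skint7 and Skint8 differed in layout. Their shared stretch of 71 columns had 69 identical bases and ended 2 bases before the start site of Skint7, but 180 bases before that of Skint8. The letters TATAAA, searched on both strands, lay 31 bases before the start of Skint7, 209 before that of Skint8 and 40 before that of Skint1. They were on the gene's own strand in Skint1 and on the opposite strand, printed as TTTATA, in Skint7 and Skint8. They were found in 6 of the 10 members and in 12.4% of 32851 RefSeq promoters of the same length. The hexamer AGGTCA, the core that nuclear receptors such as PPARγ and its partners bind, was found in none of the 11 Skint windows and in 14% of the same promoters. These are letter matches in a short window only.

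The libraries held between 10120840 and 18851255 counts on listed genes, and between 17952 and 46173 of these fell on the 10 members. The lowest single value was 106 counts (Skint2 in WT replicate 1) and the highest 8297, so counting error was small beside the spread between mice. Levels are given as CPM, the counts divided by library size with edgeR's TMM factors, and differences as the log2 fold change of Pparg-/-epi over WT with its standard error (SE). Adjusted p-values are from edgeR's quasi-likelihood test with Benjamini-Hochberg adjustment over all 14533 genes, and a gene was called altered at an adjusted p under 0.05 and a log2 fold change of at least 0.6 in size. Pparg itself was low, between 0.533 and 14.3 CPM in WT and between 1.33 and 6.49 CPM in Pparg-/-epi mice (log2 fold change -0.10, SE 0.71, adjusted p = 0.949). Cre excision leaves a shortened Pparg transcript that is still counted over the gene, so this value does not check the genotype.

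Loss of epidermal Pparg went with a change in 4 of the 10 members, of which 1 was higher and 3 were lower than in WT. Among all genes tested, 10.3% were altered, 5.19% higher and 5.08% lower. Skint1 rose, Skint5, Skint7 and Skint10 fell, and the remaining 6 did not pass the test. Without WT replicate 3, WT replicate 4 or Pparg-/-epi replicate 9 it was 2 members, Skint1 and Skint5. The median log2 fold change of the members was -0.30, beside -0.011 over all genes. The levels of the members that fell also moved with a number in the mouse names and with RNA quality, which were unevenly spread over the groups, and those values are given after the levels. In bulk scrapings, fewer cells that express a gene and less of its RNA per cell cannot be told apart.

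**Figure D1:**
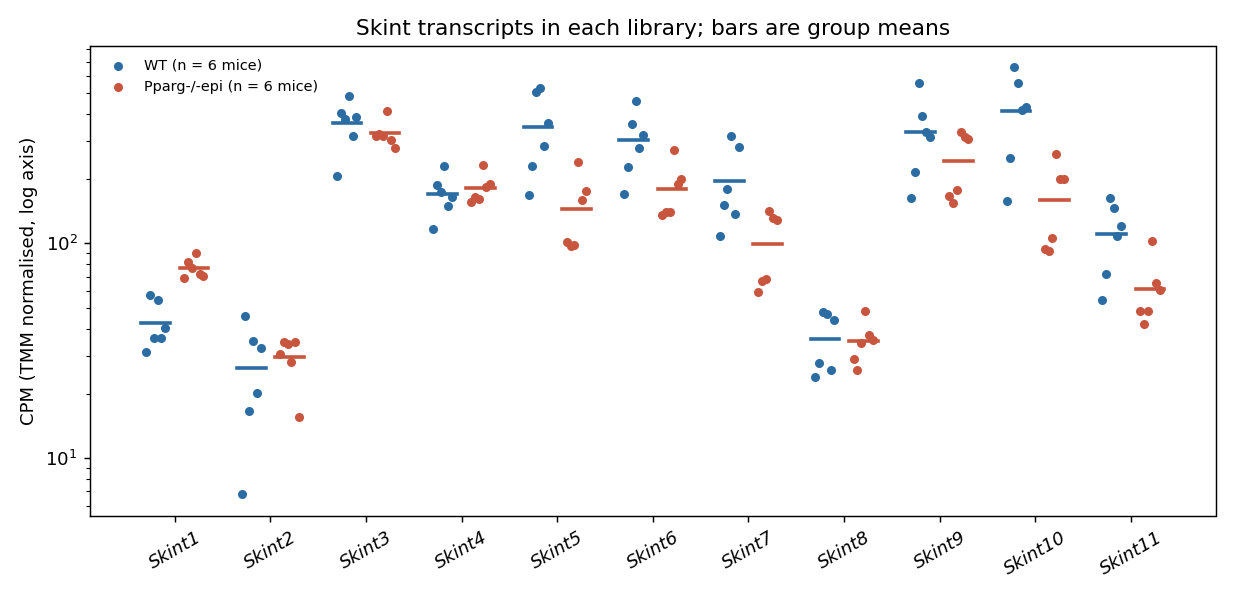
CPM (log axis) of Skint1 to Skint11 in each of the 12 libraries, with WT in blue, Pparg-/-epi in red and a horizontal bar at each group mean (n = 6 mice per group). The Skint1 points of Pparg-/-epi mice, from 69.0 to 90.3, all lie above those of WT mice, from 31.1 to 57.4, whereas Skint5, Skint7 and Skint10 lie lower in Pparg-/-epi mice with some overlap.

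Skint1, the gene required for epidermal gamma delta T cell selection, was at 31.1, 57.4, 36.2, 54.7, 36.4 and 40.2 CPM in WT replicates 1 to 6. In Pparg-/-epi replicates 7 to 12 it was at 69.0, 82.3, 76.8, 90.3, 71.9 and 70.6 CPM. Every Pparg-/-epi library was above every WT library. The log2 fold change was 0.85 (SE 0.15, adjusted p = 0.00295), or 1.80-fold. Skint1 was the 1 member of 10 whose groups did not overlap, beside 7.9% of all genes. It was altered in each of the 12 fits that left out 1 library, with log2 fold changes from 0.76 to 0.94. In female mice alone the log2 fold change was 0.56, under the fold limit, with an adjusted p of 0.0608.

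Skint10 had the largest fall. It was at 158.1, 248.6, 660.4, 557.8, 416.9 and 433.0 CPM in WT replicates 1 to 6 and at 94.5, 91.8, 106.3, 261.4, 200.3 and 200.2 CPM in Pparg-/-epi replicates 7 to 12. WT replicates 3 to 6 were above all Pparg-/-epi libraries, while WT replicates 1 and 2 lay within their range. The log2 fold change was -1.37 (SE 0.36, adjusted p = 0.0230). The call was lost without WT replicate 3, WT replicate 4 or Pparg-/-epi replicate 9, where adjusted p was at most 0.0542.

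Skint5 was lowest in the same libraries as Skint10, Pparg-/-epi replicates 7 to 9. Its values were 168.1, 228.2, 505.4, 529.5, 283.1 and 364.6 CPM in WT replicates 1 to 6 and 101.4, 97.4, 98.7, 239.6, 159.1 and 174.6 CPM in Pparg-/-epi replicates 7 to 12. All 6 Pparg-/-epi libraries were below the WT median of 323.8 CPM, and the ranges overlapped. The log2 fold change was -1.26 (SE 0.31, adjusted p = 0.0175), and it kept its call in all 12 fits without 1 library, at -1.46 to -1.09.

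Skint7 was at 108.3, 151.7, 179.6, 315.4, 137.0 and 282.3 CPM in WT replicates 1 to 6 and at 59.2, 66.8, 68.3, 141.7, 131.9 and 128.7 CPM in Pparg-/-epi replicates 7 to 12. The 3 lowest values were those of Pparg-/-epi replicates 7 to 9. The log2 fold change of -0.98 (SE 0.31) was close to the limit, at an adjusted p of 0.0492, and the call was kept in 3 of the 12 fits without 1 library. Skint8, its close copy, was far lower and at 23.8 to 48.1 CPM in WT (median 35.9) and 25.8 to 48.2 CPM in Pparg-/-epi mice (median 34.9). Its log2 fold change was -0.04 (SE 0.21, adjusted p = 0.930).

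Skint6, whose transcript aligned with that of Skint5 over the longest stretch, ran from 169.6 to 458.0 CPM in WT mice (median 300.0) and from 135.4 to 272.2 CPM in Pparg-/-epi mice (median 165.1). It just missed the test (log2 fold change -0.75, SE 0.24, adjusted p = 0.0506). It passed with edgeR's likelihood ratio test, the study's own method (adjusted p = 0.0209), and with DESeq2 (adjusted p = 0.0134), and either tool then called 5 members. On simulated counts, described under the processing, these 2 tests made 25 and 30 false calls, against 8 with the quasi-likelihood test. Skint11 ran from 54.3 to 162.5 CPM in WT and from 42 to 102.9 CPM in Pparg-/-epi mice (log2 fold change -0.85, SE 0.28, adjusted p = 0.0580). It too passed with the likelihood ratio test (adjusted p = 0.0247) and DESeq2 (adjusted p = 0.0169).

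The remaining members did not pass any of these 3 tests. Skint9, the member closest in sequence to Skint10, was at 163.2 to 556.9 CPM in WT (median 321.9) and 153.6 to 330.8 CPM in Pparg-/-epi mice (median 242.8; log2 fold change -0.45, SE 0.30, adjusted p = 0.348). Skint3 was among the more abundant members, at medians of 384.0 and 317.1 CPM in WT and Pparg-/-epi mice (log2 fold change -0.16, SE 0.17, adjusted p = 0.598). Skint4 had medians of 168.7 and 173.5 CPM (log2 fold change 0.09, SE 0.15, adjusted p = 0.747). Skint2 was the lowest member and the most variable in WT, from 6.78 to 45.7 CPM, against 15.5 to 34.8 CPM in Pparg-/-epi mice (log2 fold change 0.18, SE 0.36, adjusted p = 0.796).

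**Figure D2:**
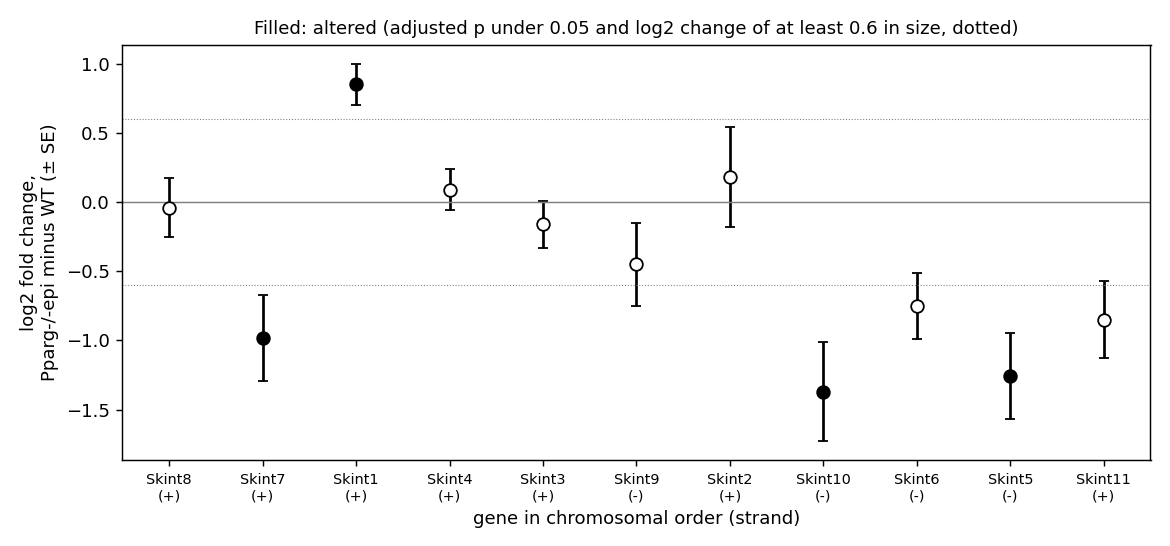
Log2 fold change (Pparg-/-epi minus WT, with SE) of Skint1 to Skint11 in their order along chromosome 4, with the strand under each name and filled points for altered genes. Skint1 at 0.85 lies between Skint7 at -0.98 and Skint4 at 0.09, and the genes from Skint10 to Skint11 lie between -1.37 and -0.75.

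Along the chromosome, the member that rose and those that fell were not separated into 2 blocks. Skint1 lies between Skint7, which fell, and Skint4, which did not pass the test. At the far end, Skint10, Skint6, Skint5 and Skint11 were neighbours with log2 fold changes of -1.37, -0.75, -1.26 and -0.85. The nearest genes outside the family were Slc5a9 and Spata6 on the side of Skint8 and Trabd2b and Foxd2os on the side of Skint11. Slc5a9, which encodes a sodium-coupled sugar transporter, rose from 43.1 ± 9.35 to 74.9 ± 13.0 CPM (SD, n = 6 in each group) with no overlap of the groups (log2 fold change 0.80, SE 0.15, adjusted p = 0.00431). Spata6 (log2 fold change -0.04, adjusted p = 0.851), Trabd2b (-0.28, adjusted p = 0.622) and Foxd2os (0.32, adjusted p = 0.718) did not pass. Of 14 listed genes within 2 Mb of the outermost members, 2 were altered (14.3%, beside 10.3% of all genes), both higher. The other one was Stil, a centriole assembly gene, with a log2 fold change of 0.82 (SE 0.15, adjusted p = 0.00365). The median log2 fold change of the 14 neighbours was -0.09.

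Levels of different genes were compared per length, as RPKM from the TMM-normalized CPM and the exon length in the table. In WT mice, Skint9 (239.7 ± 101.4 RPKM) and Skint10 (238.6 ± 108.1) led, and Skint9 was above Skint10 in 3 of 6 mice, so these 2 were not ordered. Next came Skint3 at 94.4 ± 24.4 RPKM, below Skint10 in all 6 mice. Skint7, Skint6 and Skint5 followed at 84.2 ± 36.0, 79.2 ± 26.6 and 77.0 ± 32.8 RPKM, and the order among them differed from mouse to mouse. Skint4 (42.5 ± 9.45), Skint1 (33.9 ± 8.57), Skint8 (28.2 ± 8.99) and Skint2 (20.5 ± 11.1) closed the order, with Skint4 above Skint1 in all 6 mice. All values are mean ± SD with n = 6, and the ranges of each neighbouring pair overlapped.

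The order was different in Pparg-/-epi mice. Skint9 led with 176.1 ± 60.8 RPKM and was above Skint10 (92.0 ± 41.2) in all 6 mice. Skint1, at 61.0 ± 6.52 RPKM, came directly after Skint3 at 84.6 ± 12.1, with no overlap between these 2. In every Pparg-/-epi mouse Skint1 was above Skint6 (46.9 ± 13.9), the next in order. Skint6, Skint4 (45.2 ± 7.04) and Skint7 (42.8 ± 16.5) were not ordered, each being above the next in 3 of 6 mice. Skint5 was at 32.3 ± 12.7, Skint8 at 27.5 ± 6.09 and Skint2 at 23.2 ± 5.80 RPKM.

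**Figure D3:**
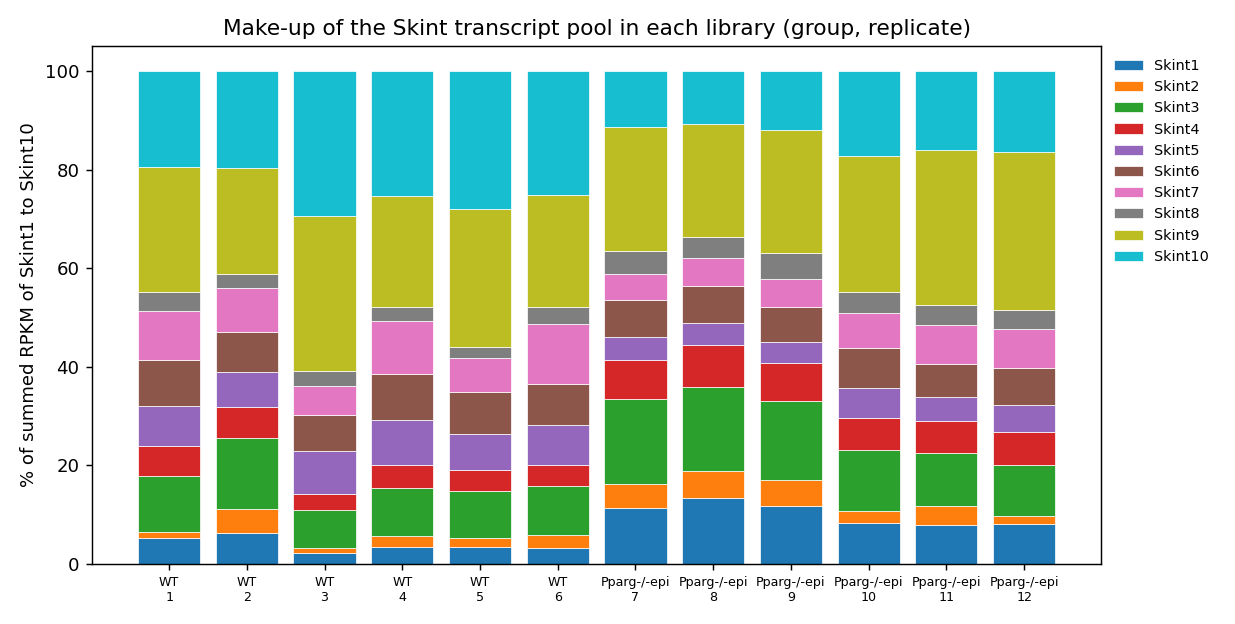
Percentage of the summed RPKM of Skint1 to Skint10 taken by each member in each of the 12 libraries. The share of Skint1 is 2.22% to 6.23% in WT, against 7.88% to 13.3% in Pparg-/-epi libraries, and that of Skint10 is 19.5% to 29.5% in WT, against 10.8% to 17.3% in Pparg-/-epi libraries.

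The summed RPKM of the 10 members overlapped between the groups, at 470.0 to 1293 (median 930.4) in WT and 482.3 to 874.9 (median 609.3) in Pparg-/-epi mice. The shares of this pool did not overlap between the groups for 3 members, Skint1, Skint5 and Skint10. In CPM the groups did not overlap for Skint1 alone, beside 7.9% of all genes. Shares of 1 pool depend on each other, so a fall of 1 member raises the shares of the others. No value over all genes exists for such shares, and they are given as descriptions. Skint1 took 3.94% ± 1.49 of the pool in WT and 10.1% ± 2.37 in Pparg-/-epi mice (SD, n = 6 each). Skint10 took 24.5% ± 4.18 in WT and 14.0% ± 2.92 in Pparg-/-epi mice, and Skint5 8.04% ± 0.851 and 4.98% ± 0.705. Skint9 took 25.3% ± 3.79 and 27.4% ± 3.69, with overlap. The ratio of Skint1 to Skint10 in RPKM was between 0.0753 and 0.317 in WT and between 0.474 and 1.23 in Pparg-/-epi mice. This ratio uses the members that moved most, so it is a description of them.

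Members also varied together from mouse to mouse. Over the 12 libraries, the 10 pairs among Skint5, Skint6, Skint7, Skint9 and Skint10 had a Pearson r of log2 CPM between 0.76 and 0.98. With the group means subtracted, r was between 0.75 and 0.98, so the shared variation was present inside the groups as well. Skint1 had r between -0.55 and -0.28 with these 5 genes over the 12 libraries and between 0.09 and 0.40 within groups. Within groups it followed Skint3 (r = 0.80), Skint2 (0.78) and Skint4 (0.78) more closely. Skint7 and Skint8, the closest copies, had r = 0.62 over the libraries and 0.83 within groups. These values share library depth, RNA quality and the mouse, and are given as descriptions.

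**Figure D4:**
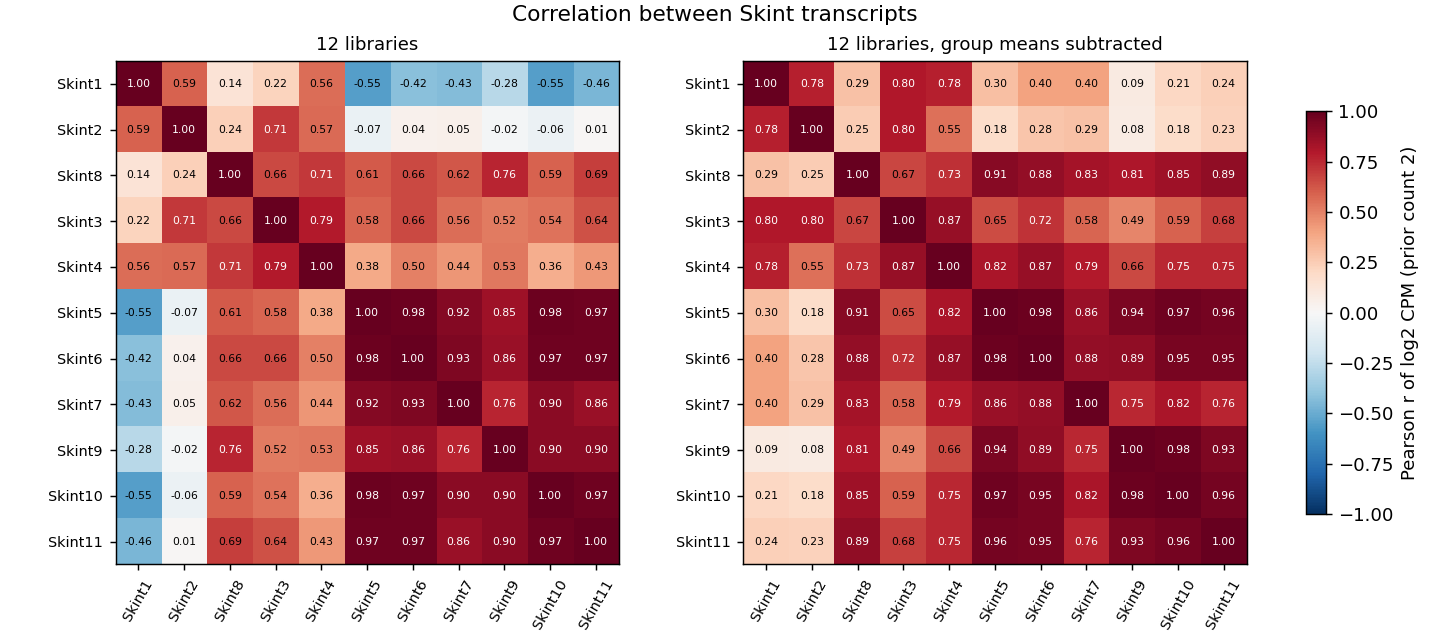
Pearson r of log2 CPM between Skint1 to Skint11 over 12 libraries (left) and after subtracting the mean of each group (right), with red for positive and blue for negative values. Skint5, Skint6, Skint7, Skint9, Skint10 and Skint11 form 1 dark block in both panels, and Skint1 goes from negative values with them on the left to weakly positive values on the right.

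The genes outside the family whose pattern was most like the mean of the members' standardized log2 CPM were Rad51c (r = 0.943), a DNA repair gene, Tmem68 (0.929), Snora65 (0.913), Gm17066 (0.908), Smim5 (0.903), Bbox1 (0.896), Them4 (0.896), Zfp329 (0.892), Crnde (0.892) and Zfp160 (0.892), over 12 libraries. All 10 had an adjusted p of at least 0.0656 for the difference between the groups. The 5 most opposite were Nfasc (r = -0.927), Coa5 (-0.912), Ergic1 (-0.910), Loxl4 (-0.902) and Crabp1 (-0.895). With the group means subtracted, the 10 highest were Rnf170 (0.961), Thumpd3 (0.960), Bbox1 (0.953), Zfp943 (0.944), Zfp160 (0.939), Rad51c (0.938), Gm20300 (0.931), Tmsb15l (0.931), Tmem68 (0.926) and Pcmtd1 (0.915). Of these, Gm20300 (log2 fold change -0.76, adjusted p = 0.00817) and Pcmtd1 (-0.67, adjusted p = 0.00285) were altered. The genes in both rankings stood at the ends of 14522 genes, and r over 12 libraries has a wide error. Over the 12 libraries, Skint1 itself had r = 0.037 with the members' mean and Skint2 0.427. The other members had r from 0.793 (Skint10) to 0.877 (Skint3), so the first ranking follows these more than Skint1 and Skint2. Each member is itself part of that mean, which raises its r, so members' values cannot be set against those of outside genes.

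The levels of several members moved with the second number of the mouse name, which the labels give without saying what it stands for. It takes 6 values, and 4 of the 6 WT mice share a value (226) that no Pparg-/-epi mouse has. For Skint10, WT mice of number 226 ran from 416.9 to 660.4 CPM, and the WT mice of numbers 217 and 222 were at 158.1 and 248.6 CPM. In Pparg-/-epi mice, Skint10 was at 94.5 CPM for number 192, 91.8 and 106.3 for number 195, 261.4 for number 222 and 200.3 and 200.2 for number 225. Number 222 is the 1 value found in both groups, with 1 mouse of each. In that pair Skint10 was at 248.6 CPM in the WT and 261.4 CPM in the Pparg-/-epi mouse, Skint5 at 228.2 and 239.6, and Skint7 at 151.7 and 141.7. Skint1 was at 57.4 and 90.3 CPM in the same 2 mice.

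**Figure D5:**
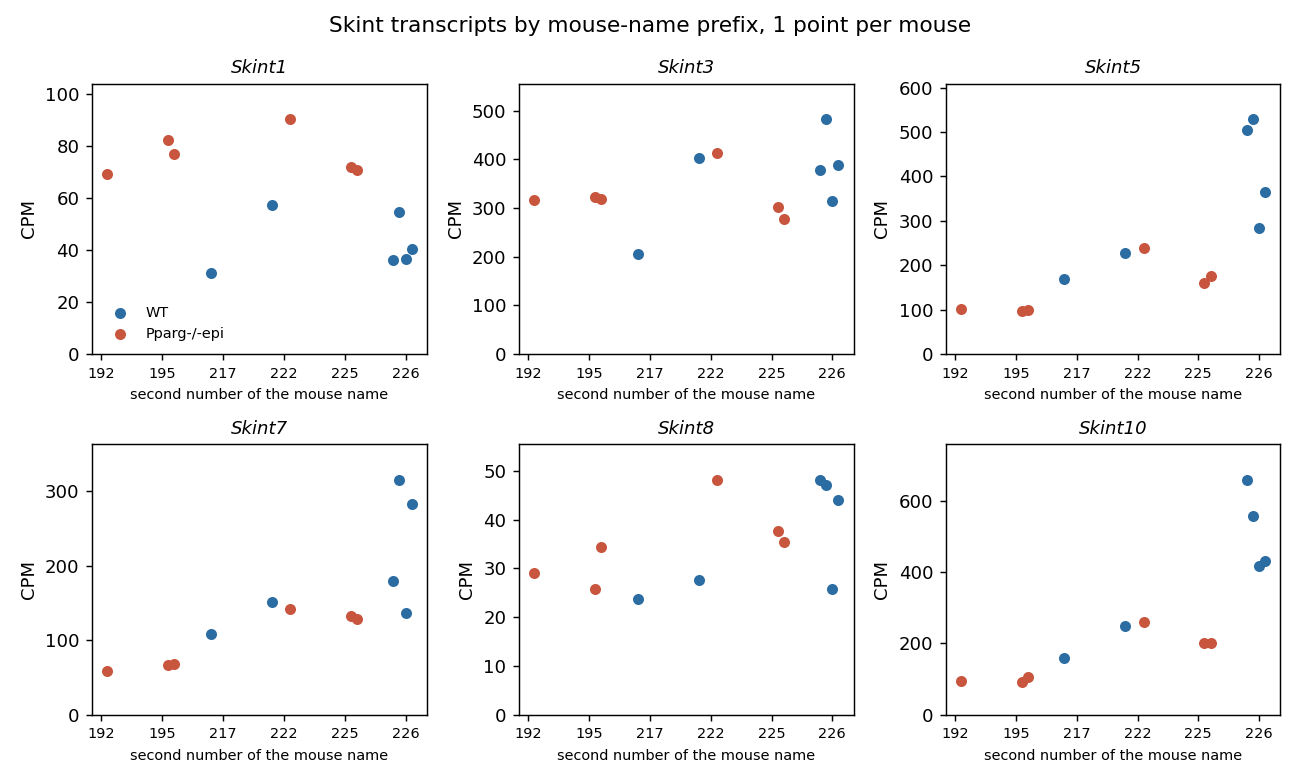
CPM of 6 members in each mouse, plotted by the second number of the mouse name, with WT in blue and Pparg-/-epi in red. For Skint5 and Skint10 the 4 WT mice of number 226 lie highest and the WT and Pparg-/-epi mice of number 222 lie close together, while for Skint1 all Pparg-/-epi mice lie above all WT mice.

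The mice were therefore also compared within earlier numbers (192 to 222, 2 WT and 4 Pparg-/-epi mice) and later numbers (225 and 226, 4 WT and 2 Pparg-/-epi mice), comparisons added after the data were seen. Among the later mice, Skint1 (log2 fold change 0.75, adjusted p = 0.0411), Skint5 (-1.35, adjusted p = 0.0209), Skint6 (-0.88, adjusted p = 0.0363) and Skint10 (-1.38, adjusted p = 0.00844) were altered in edgeR's quasi-likelihood test. Among the earlier mice no member was, and Skint1 alone had an unadjusted p under 0.05, with log2 fold changes of 0.86 for Skint1 (adjusted p = 0.180), -0.55 for Skint5 (adjusted p = 0.569), -0.62 for Skint7 (adjusted p = 0.481) and -0.54 for Skint10 (adjusted p = 0.631). With the 2 blocks as a term, Skint1 (0.81, adjusted p = 0.00576) and Skint5 (-0.95, adjusted p = 0.0467) were altered, and Skint10 (-0.96, adjusted p = 0.0563) and Skint7 (-0.72, adjusted p = 0.0893) were not. With every number as its own term, which rests the genotype on the pair of number 222, the log2 fold changes were 0.65 for Skint1, 0.07 for Skint5, 0.07 for Skint10 and -0.10 for Skint7, and no member was altered, with Skint1 alone at an unadjusted p under 0.05.

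RNA quality moved with the same split. RIN, the RNA integrity number, was 7.4 to 8.6 in the mice of earlier numbers and 5.7 to 7.1 in those of later numbers, so the name number and RIN cannot be told apart here. In WT mice, mean Skint10 was 203.4 CPM at earlier and 517.0 CPM at later numbers, and mean Skint1 was 44.2 and 41.9 CPM. In Pparg-/-epi mice, mean Skint10 was 138.5 and 200.2 CPM, and mean Skint1 79.6 and 71.2 CPM. Fibroblast markers followed the split as well. In WT mice, their summed CPM was 35205 and 12047 at earlier and 1043 to 7916 at later numbers. In Pparg-/-epi mice it was 8288 to 12570 and 5343 to 7448. Macrophage and endothelial sums split likewise in WT mice but overlapped in Pparg-/-epi mice. WT replicate 1, with the fibroblast sum of 35205, had the lowest WT value of each of Skint1 to Skint11. With RIN as a term, Skint1 (0.78, adjusted p = 0.00362), Skint5 (-1.07, adjusted p = 0.0336) and Skint10 (-1.08, adjusted p = 0.0365) were altered and Skint7 (-0.84, adjusted p = 0.0714) was not. What part the name number, RIN and dermal content have in the falls of Skint5, Skint7 and Skint10 was not tested beyond these values.

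No member's response differed between the sexes past the threshold. The interaction of genotype and sex in edgeR's quasi-likelihood test gave an adjusted p of at least 0.895 for every Skint gene, and its lowest unadjusted p was 0.0088, for Skint7. Over all 14533 genes, 0 passed an adjusted p of 0.05 and 741 had an unadjusted p under 0.05. With 2 male Pparg-/-epi mice, this test cannot show that the responses were alike in both sexes. The log2 fold changes in female and male mice were -1.62 and -0.08 for Skint7, and -1.72 and -0.64 for Skint5. They were -1.75 and -0.85 for Skint10, and 0.56 and 1.20 for Skint1.

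The epidermal T cells that the family is named for were followed through a list of 60 T cell gene symbols. Some symbols name the same gene, such as Jaml and Amica1, and 44 different genes were listed. Loss of epidermal Pparg went with 8 higher and 3 lower genes, 33 were not altered, and the median log2 fold change was 0.22. Over all genes tested, 5.19% were higher and 5.08% lower, with a median log2 fold change of -0.011. The defining receptor genes that the table lists were the 4 CD3 signalling chains, whereas none of the list's gamma or delta T cell receptor genes was among the rows used here. Cd3e was lower, at 10.8 to 18.5 CPM (median 13.6) against 14.5 to 33.9 CPM (median 23.0) in WT (log2 fold change -0.75, SE 0.21, adjusted p = 0.0325). Cd247 (-0.83, adjusted p = 0.0556), Cd3d (-0.53, adjusted p = 0.244) and Cd3g (-0.47, adjusted p = 0.238) did not pass. The other genes that fell were Cd7, a surface protein of T cells and NK cells (-0.75, adjusted p = 0.0365), and Ccr4, a skin-homing chemokine receptor (-1.03, adjusted p = 0.0319), both named after their values were seen. None of these 3 falls kept its call with the 2 blocks of name numbers as a term (adjusted p = 0.0789 for Cd3e, 0.0683 for Cd7 and 0.0952 for Ccr4) or with RIN as a term (0.0579, 0.0625 and 0.0910). Of the 12 fits without 1 library, Cd3e and Ccr4 kept their calls in 4 and Cd7 in 5, and no T cell gene was called lower without Pparg-/-epi replicate 7, 8 or 9 or WT replicate 3, 4 or 5. With every name number as a term the log2 fold change was -0.20 for Cd3e, -0.07 for Cd7 and 1.16 for Ccr4.

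The 5 altered T cell genes with the largest change all rose. Cd8b1 and Cd8a, the chains of a co-receptor of alpha beta T cells that is also found on some intraepithelial T cells, had log2 fold changes of 2.82 (SE 0.55, adjusted p = 0.00512) and 2.20 (SE 0.42, adjusted p = 0.00437) at low levels, with 0.859 to 1.83 CPM against 0 to 0.318 CPM for Cd8b1. Cd8b1 was above the table's limit of 0.5 CPM in all 6 Pparg-/-epi and in 0 WT libraries, so it is listed only through the group in which it is high and had to differ. Without it, 7 of the other 43 were higher and 3 lower, with a median log2 fold change of 0.19. Cd5, an inhibitory surface protein of T cells, was at 5.67 to 10.2 CPM against 0.426 to 3.61 CPM in WT (2.28, SE 0.40, adjusted p = 0.00272). The granzymes Gzmc (2.08, SE 0.53, adjusted p = 0.0195) and Gzmb (1.71, SE 0.47, adjusted p = 0.0264) rose with overlap of the groups. Gzmb was low, at 0.134 to 1.28 CPM in WT and 0.832 to 2.66 CPM in Pparg-/-epi mice. It kept its call in 7 of the 12 fits without 1 library, and Gzmc in all 12. The summed CPM of the 44 genes, scaled to the library total without TMM as for all sums of lists, was 1087 to 1445 in WT, against 1038 to 1308 in Pparg-/-epi libraries, and Rora, a nuclear receptor gene that is not particular to T cells, made up 31.3% to 59.8% of it. The sum of the 4 CD3 chains was 48.5 to 111 (median 77.5) in WT and 34.2 to 70.8 (median 49.2) in Pparg-/-epi libraries, with overlap. These lists cannot tell epidermal gamma delta T cells from other T cells of the scraping. Without WT replicate 2, 18 of the 44 were altered, 13 higher and 5 lower, beside 2249 of all 14533 genes in that fit. Without Pparg-/-epi replicate 7, 8 or 9 or WT replicate 5 it was 6, and without Pparg-/-epi replicate 11 or WT replicate 3 or 4 it was 7.

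Of 29 other keratinocyte or stromal genes known to act on epidermal T cells, 21 were listed. Of these, 5 were higher and 1 lower, beside 5.19% and 5.08% of all genes. Their median log2 fold change was 0.40, beside -0.011 over all genes. The chemokines Cxcl16 (1.18, SE 0.11, adjusted p = 8.44e-05), Ccl22 (1.64, SE 0.29, adjusted p = 0.00297) and Ccl17 (1.27, SE 0.39, adjusted p = 0.0430) rose. Ccl17 was low, at 0.189 to 0.902 CPM in WT and 0.848 to 1.72 CPM in Pparg-/-epi mice. Its call was kept in 1 of the 12 fits without 1 library, against all 12 for Cxcl16 and Ccl22. The others that rose were Ephb2, a receptor of ephrin-B ligands (1.23, SE 0.21, adjusted p = 0.00208), and 2610528A11Rik, which encodes a ligand of the T cell homing receptor Gpr15 and was at 27.0 to 86.2 CPM against 1.20 to 6.53 CPM (3.89, SE 0.46, adjusted p = 3.02e-04). Il15, a cytokine that T cells of the epidermis need, fell, at 5.28 to 9.48 CPM against 8.50 to 25.7 CPM in WT (-1.02, SE 0.28, adjusted p = 0.0274). Its call was lost with the 2 blocks of name numbers (adjusted p = 0.0759) or RIN (adjusted p = 0.0569) as a term and kept in 6 of the 12 fits without 1 library, and with every name number as a term its log2 fold change was -0.03. Of a list of related immunoglobulin superfamily genes, none of the 8 Btn and Btnl genes was among the rows used here. None of the 9 that were, Ermap and 8 B7-type genes, was altered in the quasi-likelihood test, although all 9 had a log2 fold change above 0, with a median of 0.81. At an unadjusted p under 0.05 there were 4, and the likelihood ratio test called 2 (Cd80 and Cd274) and DESeq2 3 (these and Icosl), all named after their values were seen. All adjusted p-values here are from edgeR's quasi-likelihood test.

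Keratinocytes, which express the family, and other cell types were followed through lists of markers. The counts below stand beside 10.3% of all genes altered, 5.19% higher and 5.08% lower. Of 12 basal keratinocyte genes 1 was higher and 1 lower, and their summed CPM was 13536 to 20389 in WT, against 14434 to 18010 in Pparg-/-epi mice. Of 18 suprabasal and granular keratinocyte genes 5 were higher, at a summed CPM of 29342 to 62795 and 38397 to 66318. Of the 4 stress keratins 3 were higher, at a summed CPM of 450.8 to 1946 in WT, against 2738 to 5554 in Pparg-/-epi mice without overlap. Of 11 sebaceous gland genes 6 were lower, at 912.6 to 3581 in WT, against 440.1 to 593.3 in Pparg-/-epi mice, also without overlap. Of the 4 listed thymic epithelium genes 0 were altered with edgeR's quasi-likelihood test, edgeR's likelihood ratio test or DESeq2 and 1 had an unadjusted p under 0.05, at a summed CPM of 33.2 to 39.6 and 32.3 to 44.8. The samples were scrapings of dorsal skin, so this list does not follow thymic cells here. Dermal and immune lists varied widely inside the WT group. Fibroblast genes had a summed CPM between 1043 and 35205 in WT libraries, and between 5343 and 12570 in Pparg-/-epi libraries. Of these 9 genes 0 were altered with any of the 3 tests and 0 had an unadjusted p under 0.05. For skeletal muscle genes it was between 21.1 and 10832 in WT libraries, and between 20.4 and 554.1 in Pparg-/-epi libraries. Of these 10 genes 0 were altered with the quasi-likelihood test or DESeq2, 3 with the likelihood ratio test, and 5 had an unadjusted p under 0.05. The part of these other cell types in the Skint values was not tested.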

How the data were processed

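Per the labels and the study's methods, the authors sequenced paired 75-base reads from KAPA mRNA HyperPrep libraries, aligned them with STAR 2.5.2b to mm10, dropped multi-mapped reads and counted reads per gene with featureCounts of Subread 1.5.1. The authors deposited whole-number counts for 12 libraries, not normalized, with exon coordinates and length. The table lists 14533 genes, each above 0.5 CPM in 6 or more libraries, and 2800 blank rows were dropped.

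Counts were normalized by TMM and tested with edgeR 4.0.16 (R 4.3.3, quasi-likelihood, genotype as the only term, Benjamini-Hochberg over all genes). The likelihood ratio test and DESeq2 1.42.0 were alternatives, as were other scalings, filters, covariates and subsets of mice. Correlations used log2 CPM with a prior count of 2. On simulated counts for 14533 genes, the quasi-likelihood test found 57.6% of 85 genes changed 2-fold and 93.0% of 115 changed 4-fold. The likelihood ratio test found 64.7% and 94.8%, and DESeq2 65.9% and 94.8%. False calls among unchanged genes were 8 with the quasi-likelihood test, 25 with the likelihood ratio test and 30 with DESeq2. No other genes were changed there, while 1493 were altered in these data. The simulated mice also had no differences by name number or RIN, so these rates need not hold here. Start-site sequences were aligned with Biopython 1.88.

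Skint1 to Skint10 were taken by name. Named beside them were Skint11, the nearest and altered neighbours, the listed CD3 genes, the 5 T cell genes with the largest change, the altered ligand and butyrophilin genes, and the genes most like the members. The members and all gene lists were chosen with earlier results of these data known. The mice were separate animals, and the main fit treated them as independent. Mice that share a name number may not be, and 4 of the 6 WT mice share 226. The p-values can therefore mix the spread between mice with that between name numbers. In a library, 1 count was worth 0.0531 to 0.0988 CPM before TMM.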

Additional observations from a re-analysis of the deposited data

Results flagged for a closer look

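A sample stood far from the others of its group in 2 of 22 groups tested, which were the WT and Pparg-/-epi mice for each of Skint1 to Skint11 (Dixon's test, 6 mice each), where about 1 in 20 is marked with no real difference. Skint2 in Pparg-/-epi replicate 12 was 15.5 CPM, below the rest of its group, whose highest value was 34.8 CPM. Skint3 in Pparg-/-epi replicate 10 was 414.0 CPM, above the rest of its group, and Pparg-/-epi replicate 10 also held the highest value of its group for Skint1, Skint4, Skint5, Skint6, Skint7, Skint8, Skint9, Skint10 and Skint11.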

How the results depend on the processing

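No replicate number was shared, since WT mice are numbered 1 to 6 and Pparg-/-epi mice 7 to 12. The 1 mouse-name number found in both groups, 222, entered as a block in the fit with each name number as a term. Splits by single mouse-name numbers, earlier or later numbers, and male mice were added after the data were seen. Subsets and terms leave fewer mice per estimate, and beyond that the cause of a changed result was not tested.

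Altered genes were 1493, but 651 in female mice, 18 in male mice, 131 at earlier name numbers, 238 with each name number as a term, and 1116 to 2249 without 1 library, the highest without WT replicate 2. Altered members were 4, but 2 with the 2 blocks of name numbers as a term, 0 in male mice, at earlier numbers or with each number as a term, and 2 to 5 without 1 library. Each count of 0 is from edgeR's quasi-likelihood test, and in those 3 fits 2, 1 and 1 members had an unadjusted p under 0.05. Epidermal T cell genes altered were 11, but 7 with RIN as a term, 3 in female mice, 0 in male mice (9 at an unadjusted p under 0.05), 1 at earlier and 5 at later numbers, 0 with each number as a term (4 unadjusted), and 6 to 18 without 1 library. Ligand genes altered were 6, but 3 in female mice, 1 in male mice, 0 at earlier numbers (6 unadjusted) and 1 with each number as a term, and 4 to 6 without 1 library. Neighbours altered were 2, but 1 in female mice, 0 in male mice, at earlier or later numbers or with each number as a term (4, 3, 3 and 4 unadjusted), 4 with no fold limit, and 2 to 3 without 1 library.

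Directions turned mostly in members that were not altered. With each name number as a term the log2 fold change was -0.70 for Skint2, 0.04 for Skint3, 0.07 for Skint5, 0.26 for Skint6, 0.80 for Skint8, 0.62 for Skint9, 0.07 for Skint10 and 0.52 for Skint11. At earlier numbers it was 0.18 for Skint3, 0.43 for Skint8 and 0.14 for Skint9, and at later numbers -0.08 for Skint2. In female mice it was -0.18 for Skint2 and -0.22 for Skint4, and in male mice 0.19 for Skint3 and 0.35 for Skint8. Skint8 was at 0.12 with the 2 blocks and 0.08 with RIN as a term. Without 1 library Skint2 ran from -0.04 to 0.39 and Skint4 from -0.01 to 0.19, both lowest without WT replicate 1, and Skint8 from -0.15 to 0.06. Under the other scalings, filters and tests no member changed direction. Skint7 lost its call in 17 of its 27 alternatives, Skint10 in 7, Skint1 in 4 and Skint5 in 3.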

Other observations

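The remaining marker lists are given as summed CPM in WT and Pparg-/-epi libraries, with altered genes by edgeR's quasi-likelihood test. Over all genes, 10.3% were altered in that test, 5.19% higher and 5.08% lower. Langerhans and dendritic cell genes (2 of 10 higher) ran from 1590 to 4007 and from 2020 to 2631. Effector and growth factor genes of epidermal T cells (1 of 6 higher, Tnf) ran from 28.4 to 109.9 and from 40.2 to 85.4, and endothelial genes (1 of 8 higher) from 9.39 to 168.2 and from 38.3 to 246.9. Hair follicle (21 genes), macrophage (8), adipocyte (7) and melanocyte (5) lists had 0 altered genes and 0 at an unadjusted p under 0.05 with the quasi-likelihood test, and 0 altered with the likelihood ratio test or DESeq2. Hair follicle genes ran from 54.7 to 2692 in WT and from 181.6 to 5567 in Pparg-/-epi libraries. Macrophage genes ran from 88.7 to 778.3 and from 186.3 to 417.8, adipocyte genes from 6.42 to 276.3 and from 14.6 to 203.8, and melanocyte genes from 11.6 to 75.9 and from 21.5 to 214.4.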
